A study of Mus musculus with 16 samples.

Results

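Triglyceride is built on glycerol phosphate by a short chain of enzymes, and 10 genes of that chain were followed through the adipocytes and livers of the same mice. Glycerol-3-phosphate acyltransferases attach the first fatty acid, acylglycerol-3-phosphate acyltransferases attach the next and make phosphatidic acid, lipins remove the phosphate to give diacylglycerol, and diacylglycerol acyltransferases add the last fatty acid. Monoacylglycerol acyltransferases reach diacylglycerol by a side route that starts from monoacylglycerol and is best known from fat absorption in the intestine. In fat cells the chain fills the lipid droplet, and in liver it supplies both stored lipid and the triglyceride of secreted lipoproteins.

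The 10 genes were taken by name from 23420 genes counted per library: Gpam, Agpat9 and Agpat6 for the first step, Agpat1 and Agpat2 for the next, Lpin1, the diacylglycerol acyltransferases Dgat1 and Dgat2, and the monoacylglycerol acyltransferases Mogat1 and Mogat2. Agpat9 and Agpat6 are older names of Gpat3 and Gpat4, whose products are glycerol-3-phosphate acyltransferases of the endoplasmic reticulum. All 10 were found in the count tables, and all 10 passed the filter on low counts in every comparison.

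Polyadenylated RNA was sequenced from 8 male C57BL/6 mice, with 1 adipocyte and 1 liver library from each. The knockout group held 4 mice labelled as carrying an adipocyte-specific deletion of Trib1, 2 of them 76 days and 2 of them 70 days old. Trib1 encodes a pseudokinase that brings target proteins to a ubiquitin ligase. The wild-type group held 4 mice, 3 of them 76 days and 1 of them 70 days old. The fat cells came from collagenase-digested subcutaneous fat, while livers were homogenized whole, and neither group received a treatment that the labels name. The sources used here name neither the promoter that drove the deletion nor the deleted stretch of Trib1.

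Libraries held between 28560887 and 53716669 counted reads. Trib1 itself did not separate the labels: it lay between 1071 and 1408 CPM (counts relative to the library total, TMM-scaled within a tissue) in the 4 adipocyte libraries labelled knockout, against 751 to 1292 CPM in the wild-type ones, a log2 change of 0.28 ± 0.18 (SE, edgeR adjusted p = 0.241), and in liver the change was 0.12 ± 0.18 (adjusted p = 0.875). A gene-level count includes reads from any part of Trib1 that the deletion leaves, so whether it checks the labels was not tested, and the libraries are called by their labels throughout. Sums of 8 adipocyte marker genes were 40640 to 45670 CPM in knockout-labelled adipocytes and 34390 to 49360 CPM in wild-type ones, and these ranges overlapped. Gene by gene, 1 of the 8, Retn, was called higher in knockout-labelled adipocytes (log2 change 1.27 ± 0.14 SE, edgeR adjusted p = 0.000345) and 0 lower. Over all genes tested in adipocytes, 18.0% were called higher and 17.1% lower. Markers of 3 other cell types of fat did not overlap: endothelial sums were 181 to 417 CPM in knockout-labelled adipocytes against 666 to 1885 CPM in wild-type ones, fibroblast and progenitor sums 727 to 1317 against 1648 to 1745 CPM, and mural sums 104 to 171 against 266 to 400 CPM. All 24 genes of these 3 lists fell in knockout-labelled adipocytes by edgeR's test, and none of them was at 0 in all 4 libraries of a group. Macrophage sums (37.4 to 218 CPM in knockout-labelled adipocytes, 79.3 to 187 CPM in wild-type ones) and lymphocyte sums (5.51 to 18.7 and 11.4 to 27.2 CPM, in the same order) overlapped. In such bulk samples fewer cells of a type and less RNA per cell cannot be told apart.

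The start regions of 3 of these genes are shown because the genes differ so much in level and in genotype response in fat: Gpam and Agpat9, first-step enzymes that were both higher in knockout-labelled adipocytes, and Mogat1, for which no such change was called. Each is the 250 bases before the annotated start in RefSeq's GRCm38.p6 annotation, written 5′ to 3′ along the gene, with matches to a searched motif in capitals.
Gpam, chr19:55127239-55127488, minus strand: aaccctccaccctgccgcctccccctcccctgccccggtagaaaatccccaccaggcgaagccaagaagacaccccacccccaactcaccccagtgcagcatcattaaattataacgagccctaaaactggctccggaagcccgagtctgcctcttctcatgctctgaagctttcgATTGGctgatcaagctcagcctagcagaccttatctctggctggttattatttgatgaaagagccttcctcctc
Agpat9 (Gpat3), chr5:100845979-100846228, plus strand: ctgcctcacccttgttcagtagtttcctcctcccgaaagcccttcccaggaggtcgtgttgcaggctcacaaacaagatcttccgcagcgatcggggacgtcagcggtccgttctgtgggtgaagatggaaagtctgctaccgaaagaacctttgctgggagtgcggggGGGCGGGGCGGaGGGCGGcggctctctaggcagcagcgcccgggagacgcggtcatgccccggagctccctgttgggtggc
Mogat1, chr1:78510810-78511059, plus strand: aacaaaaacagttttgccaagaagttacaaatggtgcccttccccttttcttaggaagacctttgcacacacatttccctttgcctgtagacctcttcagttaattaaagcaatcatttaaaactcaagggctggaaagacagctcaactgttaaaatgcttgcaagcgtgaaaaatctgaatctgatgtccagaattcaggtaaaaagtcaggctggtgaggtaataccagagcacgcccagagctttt

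The capitals in the Gpam window are 1 CCAAT box, read on the opposite strand, and those in the Agpat9 window are 3 GC boxes (GGGCGG), the first and the middle one sharing a base. The Mogat1 window held none of the 7 motifs searched on both strands, and its GC content was 41.2%, against 54.8% for the Gpam window shown, 64.0% for Agpat9 and a median of 52.4% over all 32851 windows. The second Gpam window, not shown, had 66.0% GC and held a GC box and AGGTCA. Gene spans given below follow GENCODE, in which the Agpat9 window lies wholly and the Mogat1 window partly inside the gene. Windows were matched for 6 of the 10 genes, 8 windows in all because Gpam and Agpat1 have 2 each. Of these 8 windows, 5 held GGGCGG, 2 held CCAAT and 3 held the nuclear receptor half-site AGGTCA, while the shares of all windows were 32.7%, 33.8% and 14.0%. The C/EBP site TTGCNNAA (9.56% of all windows), the SREBP site TCACNCCAC (1.05%), the E-box CACGTG (6.02%) and TATAAA (12.4%) were found in 0 of the 8 windows. A match is a string of letters and not evidence of binding, and a window without one says nothing of a factor's action elsewhere at the gene.

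In adipocytes 8 of the 10 genes rose in the libraries labelled knockout and 0 fell, at an adjusted p under 0.05 in edgeR's quasi-likelihood test (Benjamini-Hochberg over 13795 genes). Every enzymatic step had at least 1 gene among the 8: Gpam and Agpat9, Agpat1 and Agpat2, Lpin1, Dgat1 and Dgat2, and Mogat2. Over all genes tested, 35.2% were called in either direction in adipocytes, 18.0% higher and 17.1% lower. The median log2 change of the 10 genes was 0.66, beside -0.01 for all genes tested, and the largest was that of Mogat2. For 7 of the 10 all knockout-labelled libraries lay above all wild-type ones, which held for 18.7% of all genes.

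**Figure D1:**
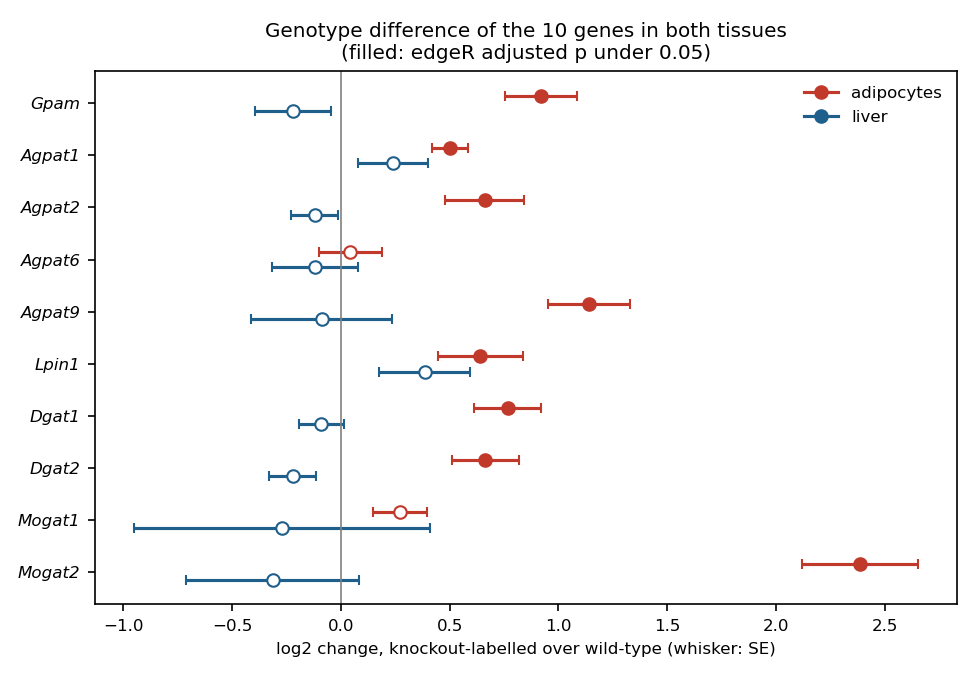
Log2 change of each of the 10 genes, knockout-labelled over wild-type (x axis), in adipocytes (red) and in liver (blue), with whiskers for the SE and filled points where edgeR's adjusted p is under 0.05. Of the 10 adipocyte points 8 are filled, with Mogat2 farthest to the right at 2.39, while all 10 liver points are open.

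The first step was carried by 3 genes that did not move alike. Gpam, on chromosome 19 (55067268 to 55127238, minus strand, GRCm38), encodes the acyltransferase of the mitochondrial outer membrane. It was measured at 390, 441, 486 and 297 CPM in knockout-labelled adipocytes from mice ko_1137, ko_1139, ko_1151 and ko_1152, against 167, 211, 238 and 236 CPM in wild-type adipocytes from mice wt_1135, wt_1136, wt_1138 and wt_1153. The lowest knockout-labelled library stood above the highest wild-type one, and the fold was 1.89 (95% interval 1.46 to 2.45, edgeR adjusted p = 0.00323). The order of mice is the same in the adipocyte values that follow.

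Agpat9 (chromosome 5, 100845713 to 100899102, plus strand) had 230, 335, 360 and 300.5 CPM in knockout-labelled adipocytes and 94.4, 166, 140 and 155 CPM in wild-type adipocytes. The groups did not overlap, and the fold of 2.21 (95% interval 1.64 to 2.96, edgeR adjusted p = 0.00235) was higher than that of every other gene of the 10 except Mogat2, although its interval overlapped those of Gpam, Agpat2, Lpin1, Dgat1 and Dgat2. Agpat6 (chromosome 8, 23171265 to 23208346, minus strand), its close relative, stood at 298, 377, 358 and 389 CPM in knockout-labelled adipocytes against 257, 399, 357 and 367 CPM in wild-type ones. The libraries of both groups were intermixed: the fold was 1.03 with an interval from 0.825 to 1.29 (edgeR adjusted p = 0.837).

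Agpat6 therefore made up a smaller share of the first step's transcripts in knockout-labelled adipocytes. Per kilobase of exon (RPKM), it held 23.3 to 30.9% of the summed level of Gpam, Agpat9 and Agpat6 in knockout-labelled adipocytes, against 40.8 to 43.0% in wild-type adipocytes. The share of Agpat9 was 38.9 to 45.5% in knockout-labelled adipocytes and 29.8 to 34.2% in wild-type ones, which did not overlap either. Gpam took 23.6 to 34.7% in knockout-labelled and 22.8 to 27.7% in wild-type adipocytes, which did overlap. Such shares use no scaling between libraries, since the scaling cancels within a library.

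**Figure D2:**
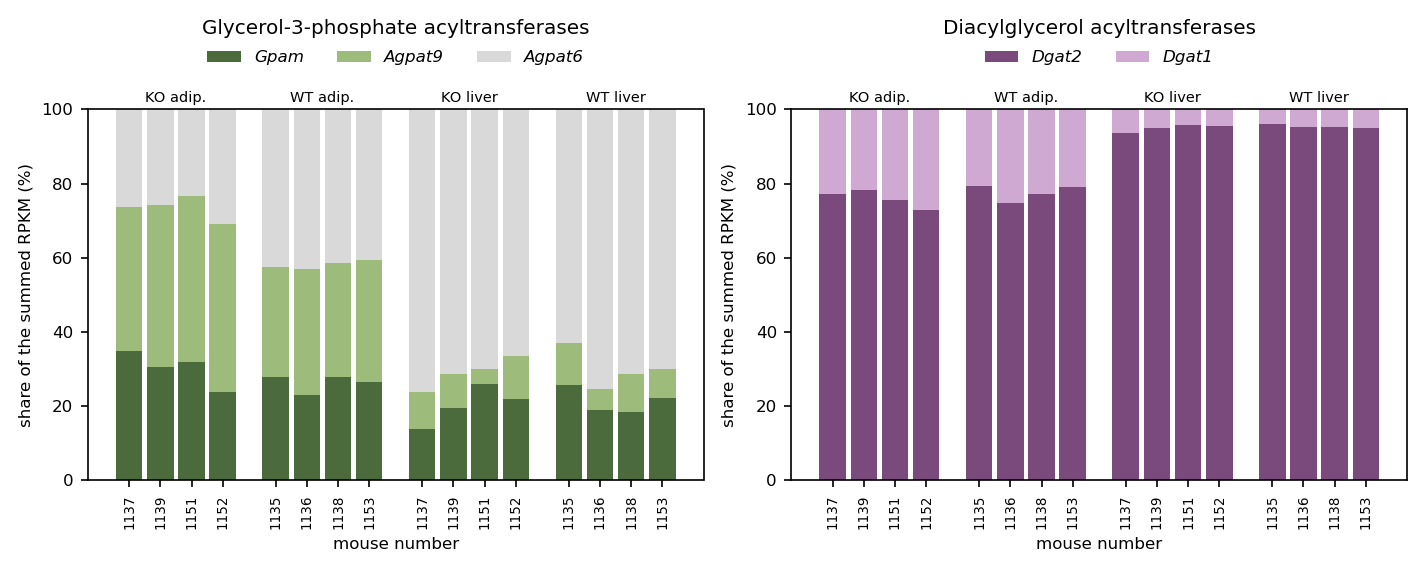
Share (y axis, %) of the summed RPKM of the 3 glycerol-3-phosphate acyltransferases (left) and of the 2 diacylglycerol acyltransferases (right) in each of the 16 libraries, ordered by group and mouse number. The grey Agpat6 segment is at most 30.9% in the knockout-labelled adipocytes and at least 40.8% in the wild-type ones, and it exceeds 60% in every liver.

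The next step uses Agpat1 and Agpat2. Agpat2 is the gene whose loss causes generalized lipodystrophy in people and in mice. It lies on chromosome 2 (26593057 to 26604417, minus strand) and had 604, 1096, 816 and 694 CPM in knockout-labelled adipocytes against 485, 609, 455 and 479 CPM in wild-type ones. Knockout-labelled mouse ko_1137 fell just under wild-type mouse wt_1136, so the groups overlapped, and the fold was 1.58 (95% interval 1.19 to 2.10, edgeR adjusted p = 0.0199). Its call depended on the choices made: without wild-type mouse wt_1138 the adjusted p was 0.0566, and with library totals alone as the scaling it was 0.0559.

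Agpat1, the more widely expressed enzyme of this step (chromosome 17, 34604262 to 34613449, plus strand), varied least within each group. Its levels were 97.8, 109, 102 and 94.9 CPM in knockout-labelled adipocytes and 67.6, 79.9, 71.7 and 66.4 CPM in wild-type ones. With no overlap and little spread, a fold of 1.42 (95% interval 1.25 to 1.61) reached an edgeR adjusted p of 0.00217. Per kilobase of exon Agpat2 held 91.5% of the pair's summed level in knockout-labelled adipocytes and 90.9% in wild-type ones, so the balance within this pair was close in both. The share leaves out other acyltransferases of the step. Agpat3, named after its values were seen, averaged 274 CPM in knockout-labelled and 227 CPM in wild-type adipocytes.

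Both genes end within a gene of the opposite strand that was also counted, and the strand setting of the counting is unknown. The last 64 bases of Agpat2 overlap Egfl7, an endothelial gene that was 21.4 ± 7.85 CPM in knockout-labelled adipocytes and 81.3 ± 51.6 CPM in wild-type ones (SD, n = 4 each). Egfl7 thus ran opposite to Agpat2. The last 101 bases of Agpat1 overlap Egfl8, which averaged 0.353 CPM in knockout-labelled adipocytes and 1.02 CPM in wild-type ones.

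Lpin1 encodes the lipin that dominates phosphatidic acid phosphatase activity in fat and is the gene mutated in the fatty liver dystrophy mouse. It lies on chromosome 12 (16535669 to 16610966, minus strand). In knockout-labelled adipocytes it stood at 957, 1245, 1249 and 1021 CPM, against 462, 723, 901 and 782 CPM in wild-type ones. The groups were adjacent but apart, at a fold of 1.56 (95% interval 1.16 to 2.11, edgeR adjusted p = 0.0287). The call was lost when mouse wt_1136, ko_1139 or ko_1151 was left out, with adjusted p-values of 0.0533, 0.0754 and 0.0727.

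The final acylation is done by Dgat1 and Dgat2, which are unrelated in sequence. Dgat1 (chromosome 15, 76502015 to 76511953, minus strand) had 488, 660, 577 and 551 CPM in knockout-labelled adipocytes and 258, 417, 354 and 310 CPM in wild-type ones. Dgat2 (chromosome 7, 99153658 to 99182719, minus strand) had 1667, 2384, 1796 and 1488 CPM in knockout-labelled adipocytes and 1005, 1253, 1200 and 1173 CPM in wild-type ones. Neither gene's groups overlapped, and the folds were close: 1.70 for Dgat1 (95% interval 1.34 to 2.16, edgeR adjusted p = 0.0051) and 1.58 for Dgat2 (1.25 to 2.01, adjusted p = 0.00973).

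Dgat2 made up 72.8 to 78.2% of the summed RPKM of both genes in knockout-labelled adipocytes and 74.9 to 79.4% in wild-type ones. The balance of the 2 enzymes thus overlapped between the genotypes while both levels were higher.

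Of the monoacylglycerol acyltransferases, Mogat2 stood apart from all the others. It lies on chromosome 7 (99219084 to 99238619, minus strand), 36364 bases from Dgat2, and is best known as the intestinal enzyme of fat absorption. Its raw counts were 562, 532, 341 and 233 in knockout-labelled adipocytes, against 77, 112, 78 and 59 in wild-type ones. Scaled, these were 12.9, 11.0, 9.30 and 6.72 CPM in knockout-labelled adipocytes and 1.49, 2.71, 2.02 and 1.44 CPM in wild-type ones. The lowest knockout-labelled library was well above the highest wild-type one, at a fold of 5.23 (95% interval 3.46 to 7.89, log2 change 2.39 ± 0.27 SE, edgeR adjusted p = 0.000317), although its level remained the lowest of the 10 genes per kilobase. The p-value ranked 234 among the 13795 genes tested.

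Mogat1 (chromosome 1, 78510991 to 78538173, plus strand), which acts on the same substrate, had 32.6, 36.2, 38.6 and 45.0 CPM in knockout-labelled adipocytes and 26.3, 35.2, 30.0 and 34.6 CPM in wild-type ones. The groups overlapped, and the fold of 1.21 had an interval from 0.997 to 1.46 (edgeR adjusted p = 0.113).

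**Figure D3:**
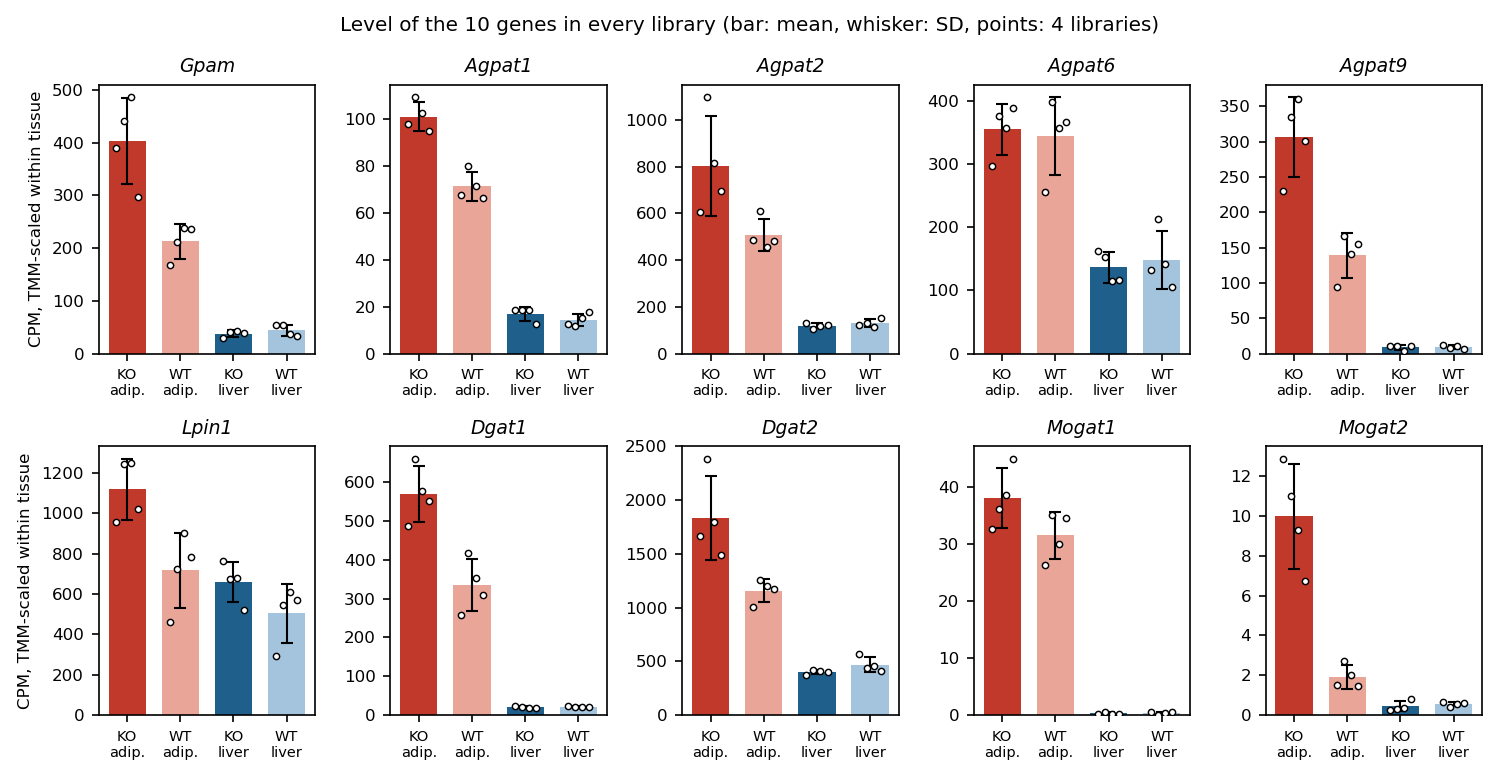
CPM, scaled by TMM within each tissue (y axis, its own range in every panel), of each of the 10 genes in adipocytes and livers of knockout-labelled (KO) and wild-type (WT) mice, with bars for the mean, whiskers for the SD and points for the 4 libraries of a group. Bar heights are comparable within a tissue. In adipocytes the KO points lie above all WT points except in the Agpat2, Agpat6 and Mogat1 panels.

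The libraries of 1 group were not equally high across the genes. Among wild-type adipocytes mouse wt_1135 had the lowest CPM for 7 of the 10 genes and also the highest endothelial and mural sums, 1885 and 400 CPM. Wild-type mouse wt_1136 was highest for 8 genes. Wild-type mouse wt_1153 had the lowest endothelial and mural sums of its group, 666 and 266 CPM, yet was highest for 0 genes and lowest for 2. Among knockout-labelled adipocytes mouse ko_1137 was lowest for 6 genes and had the highest fibroblast and progenitor sum, 1317 CPM. Mouse ko_1152 had the lowest mural sum, 104 CPM, and was lowest for 4 genes. Mouse ko_1151, with the lowest endothelial sum of 181 CPM, was highest for 3 genes and lowest for 0. The part of the other cell types in these library differences was not tested.

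A stromal marker score was the mean log2 CPM of each list, averaged over the endothelial, fibroblast and progenitor, and mural lists. Adding this score as a covariate left only Mogat2 called among the 10 genes, at a log2 change of 2.83 ± 0.48 (SE, edgeR adjusted p = 0.0155). The fitted log2 change was 0.51 for Gpam and 0.50 for Dgat1, against 0.92 and 0.77 without the covariate. It was 0.33 for Agpat9 and 0.03 for Lpin1, against 1.14 and 0.64. For Agpat1 (0.50), Agpat2 (0.54) and Dgat2 (0.58) it moved less, and for Agpat6 (-0.44) and Mogat1 (-0.18) it changed sign. None of these 9 was called, with edgeR adjusted p-values from 0.192 (Agpat1) to 0.979 (Lpin1). The SE of each of the 9 was larger with the covariate than without it. It was 0.18 against 0.08 for Agpat1, 0.38 against 0.18 for Agpat2 and 0.31 against 0.15 for Dgat2. The CPM sums of each of these lists separated the genotypes completely. The score is built from the same genes, so the covariate and the genotype cannot be told apart in these libraries. The covariate fit called 413 of all genes in place of 4849.

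Age differed between the groups too. Among mice of 76 days alone, 2 labelled knockout and 3 wild-type, 4 of the 10 genes were called, Gpam at a log2 change of 1.02, Agpat1 at 0.50, Agpat9 at 1.08 and Mogat2 at 2.53. The other 4 kept values of 0.72 (Agpat2), 0.66 (Lpin1), 0.74 (Dgat1) and 0.81 (Dgat2) without passing. Over all genes, 1730 of 14338 tested were called at 76 days, 832 higher and 898 lower. With mice of both ages, 4849 of 13795 were called. At 70 days, with 2 knockout-labelled mice and 1 wild-type mouse, the log2 ratios of means have no test of their own. The largest were 2.48 for Mogat2, 1.09 for Agpat9, 0.86 for Dgat1 and 0.73 for Gpam. Smaller ones were 0.65 for Agpat2, 0.57 for Agpat1, 0.54 for Lpin1, 0.49 for Dgat2, 0.27 for Mogat1 and 0.03 for Agpat6.

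**Figure D4:**
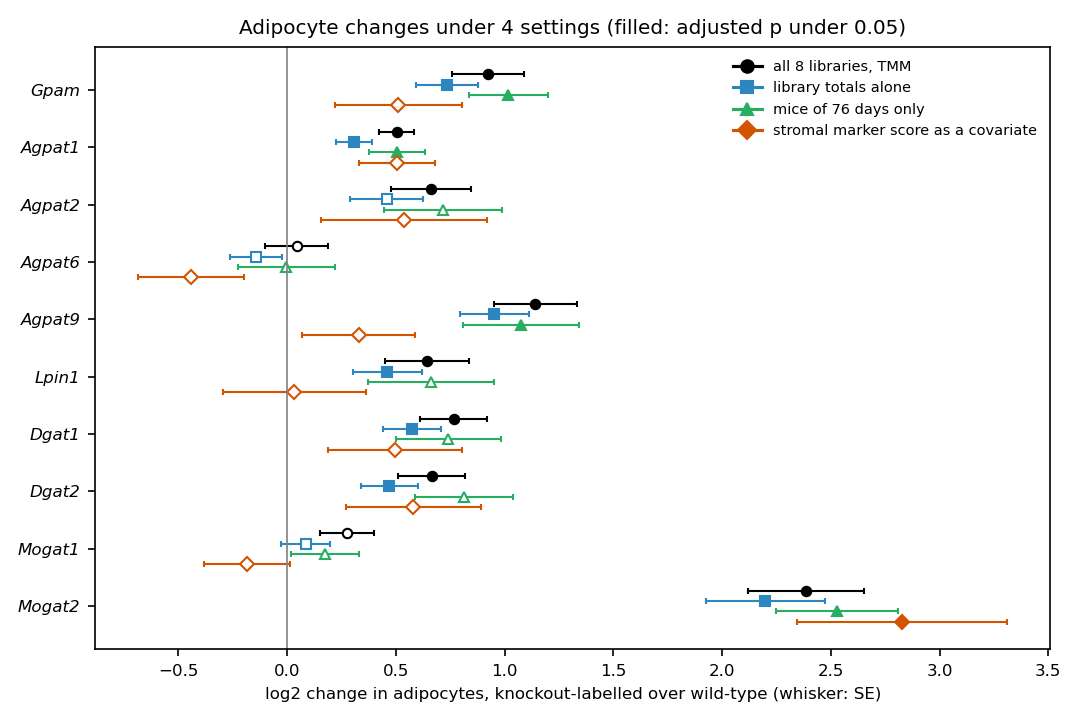
Log2 change in adipocytes, knockout-labelled over wild-type (x axis, whiskers SE), for each of the 10 genes under 4 settings: all 8 libraries with TMM scaling (black), scaling by library totals alone (blue), mice of 76 days only (green) and with the stromal marker score as a covariate (orange); filled points have an edgeR adjusted p under 0.05. Mogat2 is filled under all 4, Lpin1 moves from 0.64 to 0.03 with the covariate, and Agpat6 is open under all 4.

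Liver asks whether the same genes differ in a tissue that an adipocyte-specific deletion does not target. None of the 10 was called there by edgeR, and none had an unadjusted p under 0.05 in edgeR, DESeq2 or limma-voom; DESeq2 gave an adjusted p for 9 of them. In liver 0.0226% of 13288 genes were called, all higher: Kng1, Kng2 and Zfp949, named after their values were seen. The groups of all 10 genes overlapped, while 2.36% of all genes lay apart upwards and 2.3% downwards, and their median log2 change was -0.12.

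Lpin1 had the largest liver difference in the upward direction. It stood at 761, 675, 677 and 520 CPM in knockout-labelled livers of mice ko_1137, ko_1139, ko_1151 and ko_1152, against 290, 546, 610 and 569 CPM in wild-type livers of mice wt_1135, wt_1136, wt_1138 and wt_1153. The groups overlapped, and without the low liver of mouse wt_1135 the log2 change was 0.19 in place of 0.39. With all 8 livers the fold of 1.31 had an interval from 0.950 to 1.80 (edgeR adjusted p between 0.612 and 0.953 for all 10 genes). Dgat2, with the lowest unadjusted p of the 10 in edgeR (0.0678), had 369, 415, 414 and 404 CPM in knockout-labelled livers and 566, 439, 456 and 408 CPM in wild-type ones.

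The spread between livers differed among other genes of the chain. Agpat6 ranged from 116 to 163 CPM in knockout-labelled livers and from 106 to 214 CPM in wild-type ones. Agpat9 ranged from 3.47 to 11.1 CPM in knockout-labelled livers and from 6.35 to 12.35 CPM in wild-type ones. Dgat1 ranged from 18.3 to 24.3 CPM in knockout-labelled livers and from 21.7 to 22.3 CPM in wild-type ones. Gpam ranged from 29.3 to 42.7 CPM in knockout-labelled livers and from 33.3 to 53.6 CPM in wild-type ones. Mogat1 and Mogat2 were low in liver, with counts of 6 to 20 and 8 to 38 in knockout-labelled livers against 0 to 22 and 12 to 28 in wild-type ones. The liver of wild-type mouse wt_1136 had 0 counts of Mogat1, which allows up to 0.0995 CPM when counting error alone is considered. That bound takes each count as independent, which is uncertain here because 77.9% of the counts between 1 and 20 were even.

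The genotype change was tested for a difference between tissues with an interaction term over all 16 libraries. It was larger in adipocytes for 6 of the 10 genes and smaller for none, beside 10.4% of all genes called larger and 8.73% called smaller. The differences, as log2 change in adipocytes minus that in liver, were 1.17 ± 0.27 for Gpam, 0.80 ± 0.23 for Agpat2, 1.26 ± 0.41 for Agpat9, 0.88 ± 0.19 for Dgat1, 0.91 ± 0.21 for Dgat2 and 2.71 ± 0.48 for Mogat2 (SE), with edgeR adjusted p-values from 0.00147 (Mogat2) to 0.0404 (Agpat9). With the mouse as a block, Agpat2 (0.77, adjusted p = 0.0515) and Agpat9 (1.32, adjusted p = 0.0916) no longer passed. Both calls were also lost with library totals alone (adjusted p = 0.0838 and 0.0722). Leaving out mouse wt_1135, wt_1153, ko_1139 or ko_1151 ended the call of Agpat2 (adjusted p up to 0.0935), and leaving out wt_1135, wt_1138, ko_1139, ko_1151 or ko_1152 ended that of Agpat9 (up to 0.157), while the other 4 calls held without each mouse. For Agpat1 (0.29 ± 0.19) and Lpin1 (0.28 ± 0.31), which were called in adipocytes, the difference between tissues itself was not called (edgeR adjusted p = 0.301 and 0.57).

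Between tissues of the same genotype, fat carried more of nearly all of the 10 genes, but not of the other enzymes of their steps. In knockout-labelled mice 9 of the 10 genes were higher in adipocytes than in liver and none was lower by edgeR's test, beside 40.4% of all genes called higher and 39.3% lower. In wild-type mice the count was also 9 of 10 and none lower, beside 40.5% higher and 37.2% lower over all genes. The exception in both was Lpin1, at a log2 difference of 0.25 ± 0.14 in knockout-labelled mice (adjusted p = 0.135) and -0.03 ± 0.26 in wild-type mice (adjusted p = 0.916). Without each knockout-labelled mouse in turn the Lpin1 difference ran from 0.19 to 0.36 and was called in 1 of 4 fits (edgeR adjusted p = 0.0478). With library totals alone as the scaling, which moved the median of all genes to 0.42 in knockout-labelled and 0.71 in wild-type mice, Lpin1 was called in both, at 0.65 and 0.60. Of 11 other enzymes of the same steps tested, 1 was higher and 7 lower in fat in knockout-labelled mice (edgeR). In wild-type mice 2 of the 11 tested were higher in fat and 5 lower. Lpin2, with the smallest p-value of these in both, differed by -5.89 ± 0.18 in knockout-labelled and -5.42 ± 0.18 in wild-type mice (log2, SE). Adipocyte and liver RNA were extracted by different methods, with a lower minimum of RNA quality for fat, so method and tissue cannot be told apart.

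Mogat1 was the most fat-biased of the 10, at a log2 difference of 6.55 ± 0.27 in knockout-labelled mice and 5.93 ± 0.40 in wild-type mice. Agpat9 (4.60 ± 0.34 in knockout-labelled, 3.34 ± 0.24 in wild-type mice) and Dgat1 (4.27 ± 0.14 and 3.39 ± 0.15, in the same order of genotypes) came next. Mogat2 differed by 3.94 ± 0.35 in knockout-labelled mice and by 1.23 ± 0.31 in wild-type mice (all edgeR, SE). The smallest difference that passed was that of Agpat6, 0.86 ± 0.14 in knockout-labelled and 0.68 ± 0.21 in wild-type mice. In wild-type mice the Agpat6 libraries of both tissues overlapped, and its call there was lost without mouse wt_1138 (adjusted p = 0.0613) or mouse wt_1153 (adjusted p = 0.0776).

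Per kilobase of exon the order of the genes could be read within a tissue. In knockout-labelled adipocytes Dgat2 averaged 499 ± 100.3 RPKM (SD, n = 4), followed by Agpat2 at 316 ± 80.7, Dgat1 at 156 ± 17.9 and Lpin1 at 97.2 ± 12.8 RPKM; Dgat2 and Agpat2 overlapped. In wild-type adipocytes the same 4 genes led, with Dgat2 at 311 ± 32.3, Agpat2 at 198 ± 30.2, Dgat1 at 90.9 ± 19.7 and Lpin1 at 61.5 ± 15.9 RPKM, the last pair overlapping.

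Below them Agpat9 (73.4 ± 13.4), Gpam (50.9 ± 10.4) and Agpat6 (44.7 ± 4.72 RPKM) followed in knockout-labelled adipocytes, each overlapping the next. In wild-type adipocytes Agpat6 (42.8 ± 8.06) came before Agpat9 (32.9 ± 7.77) and Gpam (26.5 ± 4.13 RPKM), again with neighbours overlapping. Agpat1, Mogat1 and Mogat2 closed the order in both genotypes, Mogat2 at 4.58 ± 1.22 RPKM in knockout-labelled and 0.867 ± 0.283 RPKM in wild-type adipocytes.

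The liver order put Lpin1 near the top. Dgat2 led at 155 ± 9.76 RPKM in knockout-labelled and 182 ± 27.6 RPKM in wild-type livers. Lpin1 followed at 81.4 ± 11.8 and Agpat2 at 66.8 ± 5.14 RPKM in knockout-labelled livers, while wild-type livers had Agpat2 at 72.9 and Lpin1 at 62.5 RPKM, and the 2 genes overlapped in each genotype. Agpat6 was the leading first-step gene of liver, with 71.1% of the step's summed RPKM in knockout-labelled and 70.0% in wild-type livers, and Dgat2 held 95.0% and 95.4% of the last step in that order of genotypes. The summed RPKM of all 10 genes was 1291 ± 220 in knockout-labelled adipocytes, 801 ± 105 in wild-type adipocytes, 353 ± 11.6 in knockout-labelled livers and 370.1 ± 10.01 in wild-type livers.

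Other enzymes of the same steps did not rise as a group in adipocytes. Of 13 counted, 10 were tested, and the shares of all genes called were 18.0% higher and 17.1% lower. In knockout-labelled adipocytes 2 of the 10 were higher and 3 lower (edgeR), with a median log2 change of -0.08. The lower ones were Lpin3, another lipin, at 4.39 ± 0.848 CPM in knockout-labelled and 8.93 ± 1.84 CPM in wild-type adipocytes, and the lipid phosphate phosphatases Ppap2a (log2 change -1.20) and Ppap2b (-0.87). The higher ones were Ppap2c (0.41) and the acyltransferase Agpat3 (0.27; Agpat3 and Lpin2 were named after their values were seen). Lpin2, a further lipin, was at a log2 change of -0.26 that did not pass (edgeR adjusted p = 0.115).

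Of 8 tested genes that supply glycerol phosphate or acyl-CoA, 2 were higher and none lower in knockout-labelled adipocytes, with a median log2 change of 0.24. The shares of all genes were 18.0% higher and 17.1% lower. Acsl1, the main acyl-CoA synthetase of fat cells, averaged 7667 ± 1517 CPM in knockout-labelled and 3951 ± 773 CPM in wild-type adipocytes (SD, n = 4 each, log2 change 0.96 ± 0.20 SE, edgeR adjusted p = 0.00616). Acsl5, another acyl-CoA synthetase, was higher as well (0.68 ± 0.08, adjusted p = 0.000562). Gpd1, which makes glycerol phosphate, was at 0.12 ± 0.17 (adjusted p = 0.611; chosen after its value was seen), and Gpd1l, its relative, at 0.23 ± 0.08 (adjusted p = 0.0582).

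Enzymes that turn the same intermediates into phospholipids moved in part with the chain. The shares of all genes called in adipocytes were 18.0% higher and 17.1% lower. Of 15 phospholipid enzymes tested, 8 were higher and none lower in knockout-labelled adipocytes, with a median log2 change of 0.25. Those with the smallest p-values were Ptpmt1, a mitochondrial phosphatase of cardiolipin synthesis (0.67), the ethanolamine phosphotransferase Ept1 (0.52), the phosphatidylethanolamine methyltransferase Pemt (0.74) and Pcyt1a, which activates phosphocholine (0.28). Among 8 regulators, 3 were higher and none lower: Pparg, the nuclear receptor of fat cell differentiation (0.40 ± 0.08, edgeR adjusted p = 0.0051), Nr1h3, an oxysterol receptor (0.49 ± 0.13, adjusted p = 0.017), and the coactivator Ppargc1a (0.80 ± 0.26, adjusted p = 0.0386). The median of the 8 regulators was 0.40.

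In liver no gene of these 4 lists was called by edgeR, DESeq2 or limma-voom. At an unadjusted p under 0.05, which 8.62% of the 13288 genes had in edgeR, each tool found 0 of the other enzymes, 2 of the supply genes (Gpd1 and Acsl1), 1 of the phospholipid enzymes (Chpt1) and 2 of the regulators (Srebf1 and Pparg).

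The genes whose profile over the 16 libraries was most like each member's were ranked by the root mean square difference of centred log2 CPM among 12634 genes. Dgat2 had the closest neighbours, Carhsp1 at 0.137 and Gbe1, the glycogen branching enzyme, at 0.148. Agpat2 was nearest to Taldo1 (0.171) and Prkaca (0.19), Agpat1 to Ttc7b (0.181) and Wdr93 (0.185), and Agpat6 to Ube3a (0.188) and Mob1b (0.189). Gpam was nearest to Fbxl5 (0.209) and to Pcx, the pyruvate carboxylase (0.226), Dgat1 to Gyg, the glycogenin (0.219), and Rhoq (0.238), and Lpin1 to BC024978 (0.237) and Leng1 (0.253). Mogat2 (B4galt6 at 0.51, Tmem216 at 0.557), Mogat1 (Ltc4s at 0.536, Heph at 0.606) and Agpat9 (Nfil3 at 0.385) had no gene as close. The second neighbour of Agpat9 was Dgat1, at 0.41, and the closest pair within the 10 was Agpat1 and Agpat2, at 0.266. These distances describe 16 libraries that share mice and tissues and differ in depth, and carry no test.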

How the data were processed

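Gene counts were deposited by the authors as 1 table per library; the submitters' processing notes list STAR (2.5.2b), featureCounts (1.5.0) and bcl2fastq (2.17), with the build mm10. The sources used here do not give the annotation, the strand setting or the treatment of multiply mapped reads. Of the deposited counts between 1 and 20, 77.9% were even, so a halved table was tried as an alternative. Counts were tested with edgeR 4.0.16 (R 4.3.3; TMM, filterByExpr, quasi-likelihood, two-sided, Benjamini-Hochberg over all genes tested, threshold 0.05) within each tissue, within each genotype between tissues, and as an interaction. DESeq2 1.42.0 and limma 3.58.1 (voom), other scalings and filters, age, a stromal marker score and leaving out each mouse were alternatives. RPKM divides TMM-scaled CPM by union exon length of GENCODE M21, matched for 22994 of 23420 symbols. Intervals cover counting and replicate spread between mice of these groups.

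Same-numbered libraries come from the same mouse by the labels; the correlations of their deviations from the group means ran from -0.0592 to 0.0916. Beyond the 10 genes, Trib1 and Adipoq were checks (Adipoq 0.41 ± 0.15 log2, edgeR adjusted p = 0.0548 in adipocytes), and up to 4 genes per list were named by smallest p-value, apart from those said to be named after their values were seen. By edgeR, remaining marker lists in adipocytes gave 1 of 8 adipocyte markers higher, 2 hepatocyte markers higher and 1 lower of 5, 0 of 7 macrophage, 1 of 8 lymphocyte markers lower, 1 of 3 muscle and 1 of 1 epithelial markers lower; DESeq2 called 3 adipocyte markers higher, 2 hepatocyte markers lower and 4 lymphocyte markers lower, and limma-voom 2 adipocyte markers higher. By edgeR the shares of all genes in adipocytes were 18.0% higher and 17.1% lower. The genes and lists were chosen with earlier results of these data known. Promoter windows are from RefSeq.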

Additional observations from a re-analysis of the deposited data

Results flagged for a closer look

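The genotype change differed between tissues for 6 of the 10 genes by the interaction test (edgeR), as log2 change in adipocytes minus that in liver: Gpam 1.17, Agpat2 0.80, Agpat9 1.26, Dgat1 0.88, Dgat2 0.91 and Mogat2 2.71. With the mouse as a block, since both tissues come from the same mice, Agpat2 (adjusted p = 0.0515, edgeR) and Agpat9 (0.0916) were no longer called.

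Among 40 groups of 4 libraries, 1 library stood far from the other 3 in 4 groups, all of them in liver; chance gives this in about 1 of 20 groups. Agpat1 was 12.5 CPM in knockout-labelled mouse ko_1152, beside 18.4 to 18.5 CPM in the other 3. Agpat9 was 3.47 CPM in knockout-labelled mouse ko_1151, beside 10.4 to 11.1 CPM. Mogat1 was 0.574 CPM in knockout-labelled mouse ko_1139, beside 0.179 to 0.213 CPM, and 0.0 CPM in wild-type mouse wt_1136, beside 0.434 to 0.473 CPM. Both Mogat1 values rest on 20 or fewer counts.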

How the results depend on the processing

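In adipocytes the count of 8 genes called was 7 or 8 under the other scalings, filters and tools and without any 1 mouse; it was 4 at 76 days only and 1 with the stromal score, where all-gene counts were 1730 and 413. Library totals alone moved the all-gene median to -0.20, with 1294 genes higher and 3897 lower (TMM: 2487 and 2362). Agpat6 changed sign with library totals (-0.14), at 76 days (-0.0032) and with the stromal score (-0.44), and ran from -0.093 to 0.12 without each mouse; Mogat1 was -0.18 with the stromal score. In liver Agpat6 was 0.018 with age as a covariate (-0.25 to 0.11 without each mouse); Agpat9 was 0.077 with age, 0.044 at 76 days and 0.037 with the stromal score (-0.24 to 0.18 without each mouse); Dgat1 was 0.061 and Mogat1 0.41 at 76 days, and Mogat1 0.28 in limma-voom. The 3 liver genes called became 102 in DESeq2, 5 with no filter, 1 with the stromal score, 0 at 76 days and 1 to 3 without each mouse. For the interaction, Agpat6 was -0.051 with library totals and Mogat1 -0.0068 in limma-voom; all-gene calls ran from 1758 to 2988 without each mouse (2845 with all). The mouse as a replicate block ended the interaction calls of Agpat2 and Agpat9 and no other of the 10 genes' calls. Lpin1 between wild-type tissues was 0.60 (adjusted p = 0.0364, edgeR) with library totals, which moved the all-gene median to 0.71, and -0.058 to 0.0031 without each mouse. Causes were not tested. Low counts limit Mogat1 and Mogat2 in liver.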
